A study of Mus musculus with 3 samples.

Results

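The genes described here are the nuclear-encoded subunits of the 5 complexes of oxidative phosphorylation, together with the paralogs that replace some of them in testis, muscle or lung. They were chosen by symbol (Ndufa, Ndufb, Ndufc, Ndufs and Ndufv with a number, Sdha to Sdhd, Uqcr, Cox4 to Cox8 and Atp5), leaving out predicted genes, and needed at least 50 unique molecular identifiers (UMIs, each standing for 1 captured mRNA molecule) over the 3 libraries. Of 55450 genes in the tables, 89 matched and 88 passed. They were 40 of complex I, 4 of complex II, 8 of complex III, 19 of complex IV and 17 of complex V.

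All 3 libraries came from testes of mice made azoospermic with busulfan, an alkylating agent that kills dividing germ cells. The dEXO library came from mice given blood exosomes of mice with an imbalanced gut microbiota, the EXO library from mice given blood exosomes of wild-type mice, and the PBS library from mice given phosphate-buffered saline. Busulfan was thus common to every group, and no library from untreated mice was analysed here. Each group was 1 library of 10x Genomics 3′ single-cell RNA-seq, and the labels do not state how many animals stand behind it. Groups could therefore not be tested against each other, p-values are left out, and the intervals cover counting error alone. The labels call the tissue testis, while the text of their extraction protocol names another organ; testicular cell types led the clusters.

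Oxidative phosphorylation passes electrons from NADH and succinate through complexes I and II to complex III, then through cytochrome c to complex IV, cytochrome c oxidase, which reduces oxygen. The proton gradient built on the way drives complex V, the ATP synthase. Most subunits are nuclear-encoded and a core set is made in the mitochondrion. Male germ cells are known for replacing several widely expressed subunits of complex IV, and the soluble carrier cytochrome c, with testis isoforms as they enter and pass through meiosis.

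The tables held 9760 barcodes in dEXO, 10228 in EXO and 5514 in PBS, with totals of 96655663, 91787154 and 97253862 UMIs and medians per barcode of 2852, 3144.5 and 7708. After filters, 8947 dEXO, 9860 EXO and 5267 PBS cells were clustered without the members among the variable genes. Clusters were named from marker genes, and each name below stands for cells like that type. Every marker of a class was detected in each library in which that class held at least 50 cells. Each pair of libraries shared 19 barcodes, and 0 barcodes occurred in all 3. Germ cells were unequally recovered: spermatogonia numbered 257 in dEXO, 105 in EXO and 71 in PBS, early spermatocytes 391, 201 and 6, late spermatocytes 366, 245 and 78, and spermatids 571, 313 and 66. The PBS early spermatocytes were too few to be used. Of the somatic classes, Leydig cells (1965, 2208 and 1878 in dEXO, EXO and PBS), stromal cells (3150, 4613 and 2043), T or NK cells (518, 665 and 414), Sertoli cells (553, 226 and 81) and macrophages (189, 214 and 147) were used, and 12 of 35 clusters stayed unnamed. The T or NK class also carried Leydig markers, with a summed level of 24551 CPM in dEXO, 21058 in EXO and 17272 in PBS. Leydig markers were seen in its cluster c18, which held few cells, 92 in dEXO, 135 in EXO and 83 in PBS. Those cells were deep, with medians of 13276.5, 11386 and 16446 UMIs, against 2063, 2411.5 and 4021 in c7, the other cluster. T or NK levels sum UMIs, so they lean on c18 more than its cell numbers show. The part of c18 in those sums is not given. Levels are CPM, the UMIs of a gene summed over the cells of a class and library and scaled to a total of 1e6. Because 1 UMI is counted per molecule whatever the transcript's length, levels of different genes are shown on 1 scale, but the capture of each 3′ end may differ.

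The largest differences among germ stages lay within pairs of isoforms, so the promoters of 2 such pairs are shown: Cox6b2 and Cox6b1, the testis and the widely expressed form of subunit 6B, and Cox7b2 and Cox7b, the same for subunit 7B. Each runs from 250 bases before to 50 bases after the RefSeq start in GRCm38.p6, on the gene's own strand. Cox6b2 lies at chr7:4753045-4753344 (minus strand), Cox6b1 at chr7:30626065-30626364 (minus), Cox7b2 at chr5:71548156-71548455 (minus) and Cox7b at chrX:106015450-106015749 (plus). Capitals mark the letters CGTCA, the reverse complement of the cAMP response element core TGACG, and CTTCCGG, the reverse complement of the ETS motif CCGGAAG.
Cox6b2: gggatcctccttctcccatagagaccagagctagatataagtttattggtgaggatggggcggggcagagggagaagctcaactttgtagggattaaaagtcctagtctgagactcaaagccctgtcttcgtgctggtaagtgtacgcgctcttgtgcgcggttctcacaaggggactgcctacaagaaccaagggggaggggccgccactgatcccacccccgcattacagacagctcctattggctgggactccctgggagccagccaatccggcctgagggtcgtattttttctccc
Cox6b1: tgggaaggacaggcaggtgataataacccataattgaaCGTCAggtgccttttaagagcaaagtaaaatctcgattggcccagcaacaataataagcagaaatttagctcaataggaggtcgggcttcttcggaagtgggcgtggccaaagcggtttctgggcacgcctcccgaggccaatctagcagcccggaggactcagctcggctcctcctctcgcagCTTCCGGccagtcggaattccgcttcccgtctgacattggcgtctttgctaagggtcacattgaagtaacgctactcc
Cox7b2: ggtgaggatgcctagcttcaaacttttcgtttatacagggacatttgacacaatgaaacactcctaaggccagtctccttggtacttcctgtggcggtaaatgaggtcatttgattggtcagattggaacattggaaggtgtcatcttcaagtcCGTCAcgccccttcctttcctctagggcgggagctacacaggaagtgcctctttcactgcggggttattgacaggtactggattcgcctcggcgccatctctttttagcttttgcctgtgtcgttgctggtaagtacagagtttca
Cox7b: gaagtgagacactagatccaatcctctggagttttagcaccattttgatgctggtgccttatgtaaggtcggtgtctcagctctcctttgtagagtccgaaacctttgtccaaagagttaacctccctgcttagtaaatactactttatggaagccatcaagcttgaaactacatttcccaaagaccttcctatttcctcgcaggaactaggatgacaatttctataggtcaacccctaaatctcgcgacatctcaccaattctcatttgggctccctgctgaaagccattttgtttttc
Both strands were searched for TGACGTCA, the cAMP response element bound by CREB and CREM, its core TGACG (which lies within it), AACNGTT (A-MYB), the NRF1 motif and CCGGAAG (ETS factors). The Cox6b2 and Cox7b windows held none of these letters. The Cox7b2 window held the core at 96 bases before the start, and the Cox6b1 window held it at 212 bases before and the ETS motif at 28 bases before. Promoter entries were found for 66 of the 88 members, 71 entries in all, and Cox8c and Ndufa4l2 are among the others. Among the member promoters 25.4% held the NRF1 motif, against 4.60% of all 32851 promoters of the same length, and 22.5% held the ETS letters, against 8.86%. The core TGACG was in 36.6% of member and 20.8% of all promoters, the full TGACGTCA in 5.63% and 1.79%, and AACNGTT in 2.82% and 4.45%.

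Cox6b2 was the minor form in spermatogonia and the major form in late spermatocytes and spermatids of each library. It had 90.4, 103 and 66.5 CPM in the spermatogonia of dEXO, EXO and PBS, 1386 and 1463 CPM in the early spermatocytes of dEXO and EXO, 1182, 1321 and 1083 CPM in late spermatocytes of the 3 libraries and 963, 1137 and 926 CPM in spermatids. Its partner Cox6b1 had 543, 590 and 548 CPM in spermatogonia, 50.7, 65.5 and 49.3 CPM in late spermatocytes and 50.4, 57.5 and 49.8 CPM in spermatids of dEXO, EXO and PBS. The share of Cox6b2 in the UMIs of the pair was thus 14.3% in dEXO spermatogonia (exact 95% interval 13 to 15.6%), 14.9% in EXO and 10.8% in PBS, and in late spermatocytes it was 95.9%, 95.3% and 95.6%. Spermatogonia and late spermatocytes did not overlap in any library.

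Cox7b2 was already the larger part of its pair in spermatogonia. Its share was 64.5% in dEXO (61.2 to 67.6%), 63.9% in EXO and 58.0% in PBS spermatogonia, then 99.5%, 99.7% and 99.1% in late spermatocytes and 98.9%, 99.3% and 99.0% in spermatids. The X-linked partner Cox7b had 67.4, 84.9 and 71.0 CPM in spermatogonia of dEXO, EXO and PBS and 5.0, 3.95 and 9.30 CPM in late spermatocytes. Cox7b2 in spermatogonia reached 17.1%, 17.5% and 13.2% of its spermatid level in the same library, while 6 abundant genes of later germ cells, among them the lactate dehydrogenase Ldhc and the protamines Prm1 and Prm2, reached at most 2.97%, 1.53% and 0.99% in dEXO, EXO and PBS. Cox7b2 stood above each of the 6 in all 3 libraries. The part of free RNA from later germ cells in the Cox7b2 level was not tested.

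Cox8c, the germ-cell form of subunit 8, had the most UMIs of the germ isoforms in the named early spermatocytes, late spermatocytes and spermatids. It had 77.2, 51.6 and 26.2 CPM in spermatogonia of dEXO, EXO and PBS, and 3118, 3373 and 2658 CPM in late spermatocytes. Its partner Cox8a had 682, 798 and 767 CPM in spermatogonia and 42.1, 48.6 and 42.8 CPM in late spermatocytes. The Cox8c share was 10.2%, 6.07% and 3.30% in spermatogonia of dEXO, EXO and PBS, 98.7%, 98.6% and 98.4% in late spermatocytes and 97.3%, 97.4% and 97.3% in spermatids. In spermatogonia the Cox8c level was in the same order over the libraries as the level of spermatid and spermatocyte transcripts there, and the part of free germ-cell RNA in it was not tested.

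Ndufa4l2, a paralog best known as a hypoxia-induced gene, outnumbered Ndufa4 from the named early spermatocytes on. Its share there was smaller than those of the other isoforms in their pairs. Ndufa4 was first listed as a subunit of complex I and was later found with complex IV. Ndufa4l2 had 15, 6 and 3 UMIs in spermatogonia of dEXO, EXO and PBS, or 3.14, 3.13 and 1.33 CPM, and 251, 258 and 169 CPM in late spermatocytes. Ndufa4 had 724, 895 and 715 CPM in spermatogonia and 17.0, 17.6 and 18.6 CPM in late spermatocytes. The Ndufa4l2 share was 73.2% in dEXO and 76.6% in EXO early spermatocytes, 93.7%, 93.6% and 90.1% in late spermatocytes of dEXO, EXO and PBS and 90.6%, 91.2% and 90.9% in spermatids.

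**Figure D1:**
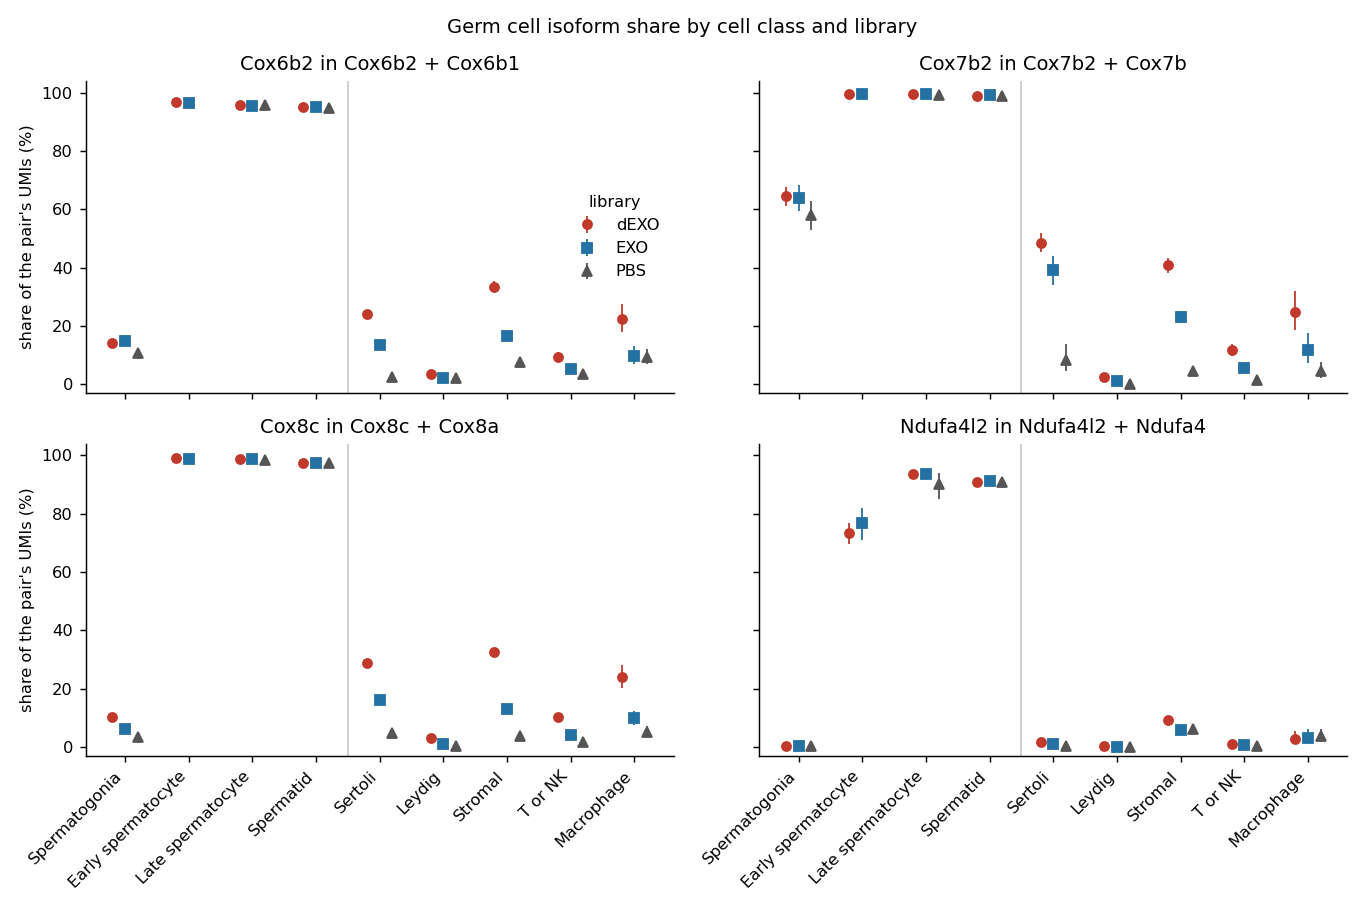
Share of the germ-cell isoform in the UMIs of each pair (y axis, percent) by cell class (x axis), for dEXO (circles), EXO (squares) and PBS (triangles); bars are exact 95% binomial intervals of counting error, and the vertical line separates germ from somatic classes. Late spermatocytes and spermatids sit above 90% in all 4 pairs, while spermatogonia range from 0.186% for Ndufa4l2 to 64.5% for Cox7b2.

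**Figure D2:**
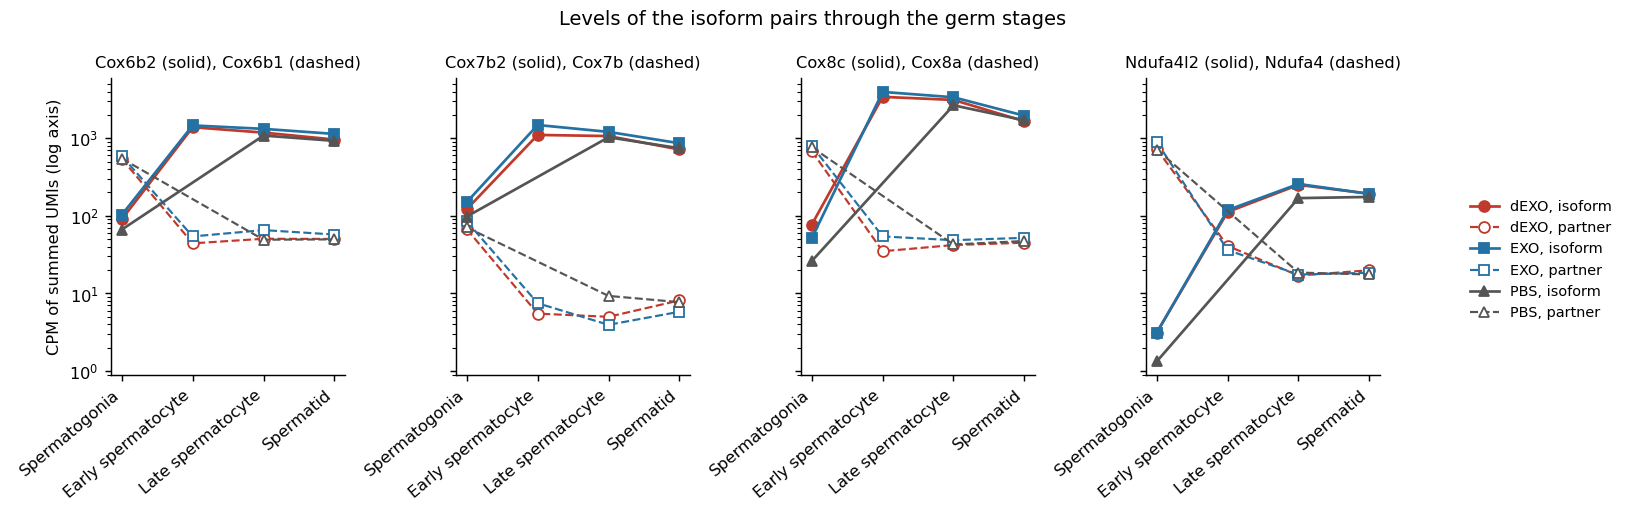
CPM (log axis) of each isoform (filled, solid line) and its partner (open, dashed line) in 4 germ stages, for dEXO, EXO and PBS; PBS has no early spermatocyte point, and its line joins the stages on either side. The isoform and partner lines cross between spermatogonia and spermatocytes for Cox6b2, Cox8c and Ndufa4l2, and Cox7b2 starts above Cox7b.

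The early spermatocytes fell in 2 unlike clusters, g2 with 55.8% and 63.2% of the cells in dEXO and EXO and g5 with the rest. The summed values rest mainly on g5, which held 5483 and 2322 UMIs of Cox6b2, against 62 and 22 in g2. Cluster g5 held deeper cells, in which Cox6b2 made up 97.3% of its pair in both dEXO and EXO and Cox8c 99.3% and 99.1%. Cluster g2 had medians of 1223.5 and 1270 UMIs per cell and 13.2% and 13.3% mitochondrial UMIs in dEXO and EXO, and there Cox6b2 made up 72.9% and 48.9%. Over the processing alternatives the Cox6b2 share of early spermatocytes ranged from 56.2 to 97.3% in dEXO and from 31.9 to 97.3% in EXO, so the stage at which the switch is complete cannot be placed from this class. In late spermatocytes the same share stayed between 94.8 and 96.2% in all libraries and alternatives. Cluster g8 raised 11 of 12 early spermatocyte markers but was left unnamed, because genes of another class led it. Cox6b2 had 106 and 45 UMIs in its dEXO and EXO cells, against 414 and 320 of Cox6b1. Cox8c had 132 and 37 there, against 193 and 176 of Cox8a. Cox7b2 was the larger part of its pair, with 309 and 249 against 45 and 33 of Cox7b.

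Isoforms known from muscle or lung followed other classes. Cox7a1, the heart and muscle form of subunit 7A, made up 15.4%, 17.3% and 26.5% of the Cox7a1 and Cox7a2 pair in Sertoli cells of dEXO, EXO and PBS and 10.6%, 12.6% and 15.8% in Leydig cells. It made up 1.79%, 1.80% and 1.93% in spermatogonia and had 15, 7 and 0 UMIs in late spermatocytes. Cox6a2 and Cox8b, the muscle forms of subunits 6A and 8, stayed at 0.28% and 0.028% of their pairs in dEXO Leydig cells, and Cox4i2, the lung form of subunit 4, had at most 10 UMIs in any class and library. Cox7a2l, which helps join complexes III and IV into supercomplexes, reached 50.5%, 52.0% and 52.6% of the UMIs it shared with Cox7a2 in macrophages and 12.4%, 10.3% and 13% in late spermatocytes of dEXO, EXO and PBS.

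Across all members, late spermatocytes were set against spermatogonia within each library, with 2-fold (a log2 ratio of 1 either way) as the size counted and at least 50 UMIs required in the pair. In dEXO 12 of 82 members were higher by that size and 30 were lower, where 34.7% of all genes were higher and 44.5% lower. In EXO 12 of 81 were higher and 31 lower (36.6% and 43.8% of all genes), and in PBS 11 of 80 were higher and 32 lower (26.1% and 51.7%). In both directions the counts of members were no larger than those shares of all genes would give. The median log2 ratio was -0.28, -0.41 and -0.51 over members in dEXO, EXO and PBS, and -0.55, -0.44 and -1.13 over all genes. In the 3 libraries together 10 members passed as higher in each and 29 as lower in each, and 75 of 80 kept 1 sign. No share of all genes is given for these joint counts, so they do not set the members apart from other genes.

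Besides the 4 isoforms, the members higher in late spermatocytes of every library were Ndufa12, Ndufb5 and Ndufc1 (accessory subunits of complex I), Uqcrq and Uqcrfs1 (a small subunit and the Rieske iron-sulfur protein of complex III) and Atp5s, coupling factor s of ATP synthase. Ndufa12 had 326, 376 and 313 CPM in late spermatocytes and 64.5, 77.6 and 62.1 CPM in spermatogonia of dEXO, EXO and PBS, log2 ratios of 2.34, 2.28 and 2.34. Atp5s had 190, 205 and 199 CPM in late spermatocytes and 38.7, 33.3 and 29.3 CPM in spermatogonia, log2 ratios of 2.29, 2.62 and 2.76. Each late spermatocyte value lay above each spermatogonia value for both genes. Uqcrfs1 differed by 1.55, 1.83 and 1.77 in dEXO, EXO and PBS. The isoforms differed most, with log2 ratios in dEXO of 6.32 for Ndufa4l2 (5.60 to 7.16), 5.34 for Cox8c, 3.71 for Cox6b2 and 3.13 for Cox7b2.

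The lowest ratios belonged to the partners of those isoforms and to Atp5g2. Ndufa4 differed by -5.41, -5.67 and -5.26 in dEXO, EXO and PBS, Cox8a by -4.02, -4.04 and -4.16, and Cox6b1 by -3.42, -3.17 and -3.47. Atp5g2, one of 3 genes for the membrane ring subunit c of ATP synthase, differed by -4.34 and -3.77 in dEXO and EXO; in PBS it had 3 UMIs in late spermatocytes and 77 in spermatogonia, a log2 ratio of -3.61 with an interval of -5.92 to -2.01. All 3 subunit c genes were lower in late spermatocytes by more than 2-fold in each library. Ndufs8, a core iron-sulfur subunit of complex I, had 38.4, 34.8 and 39.1 CPM in late spermatocytes and 335, 315 and 304 CPM in spermatogonia of dEXO, EXO and PBS. The 3 X-linked members, Ndufa1 and Ndufb11 of complex I and Cox7b, were lower by more than 2-fold in each library, with log2 ratios of -3.75 to -2.71 in dEXO.

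**Figure D3:**
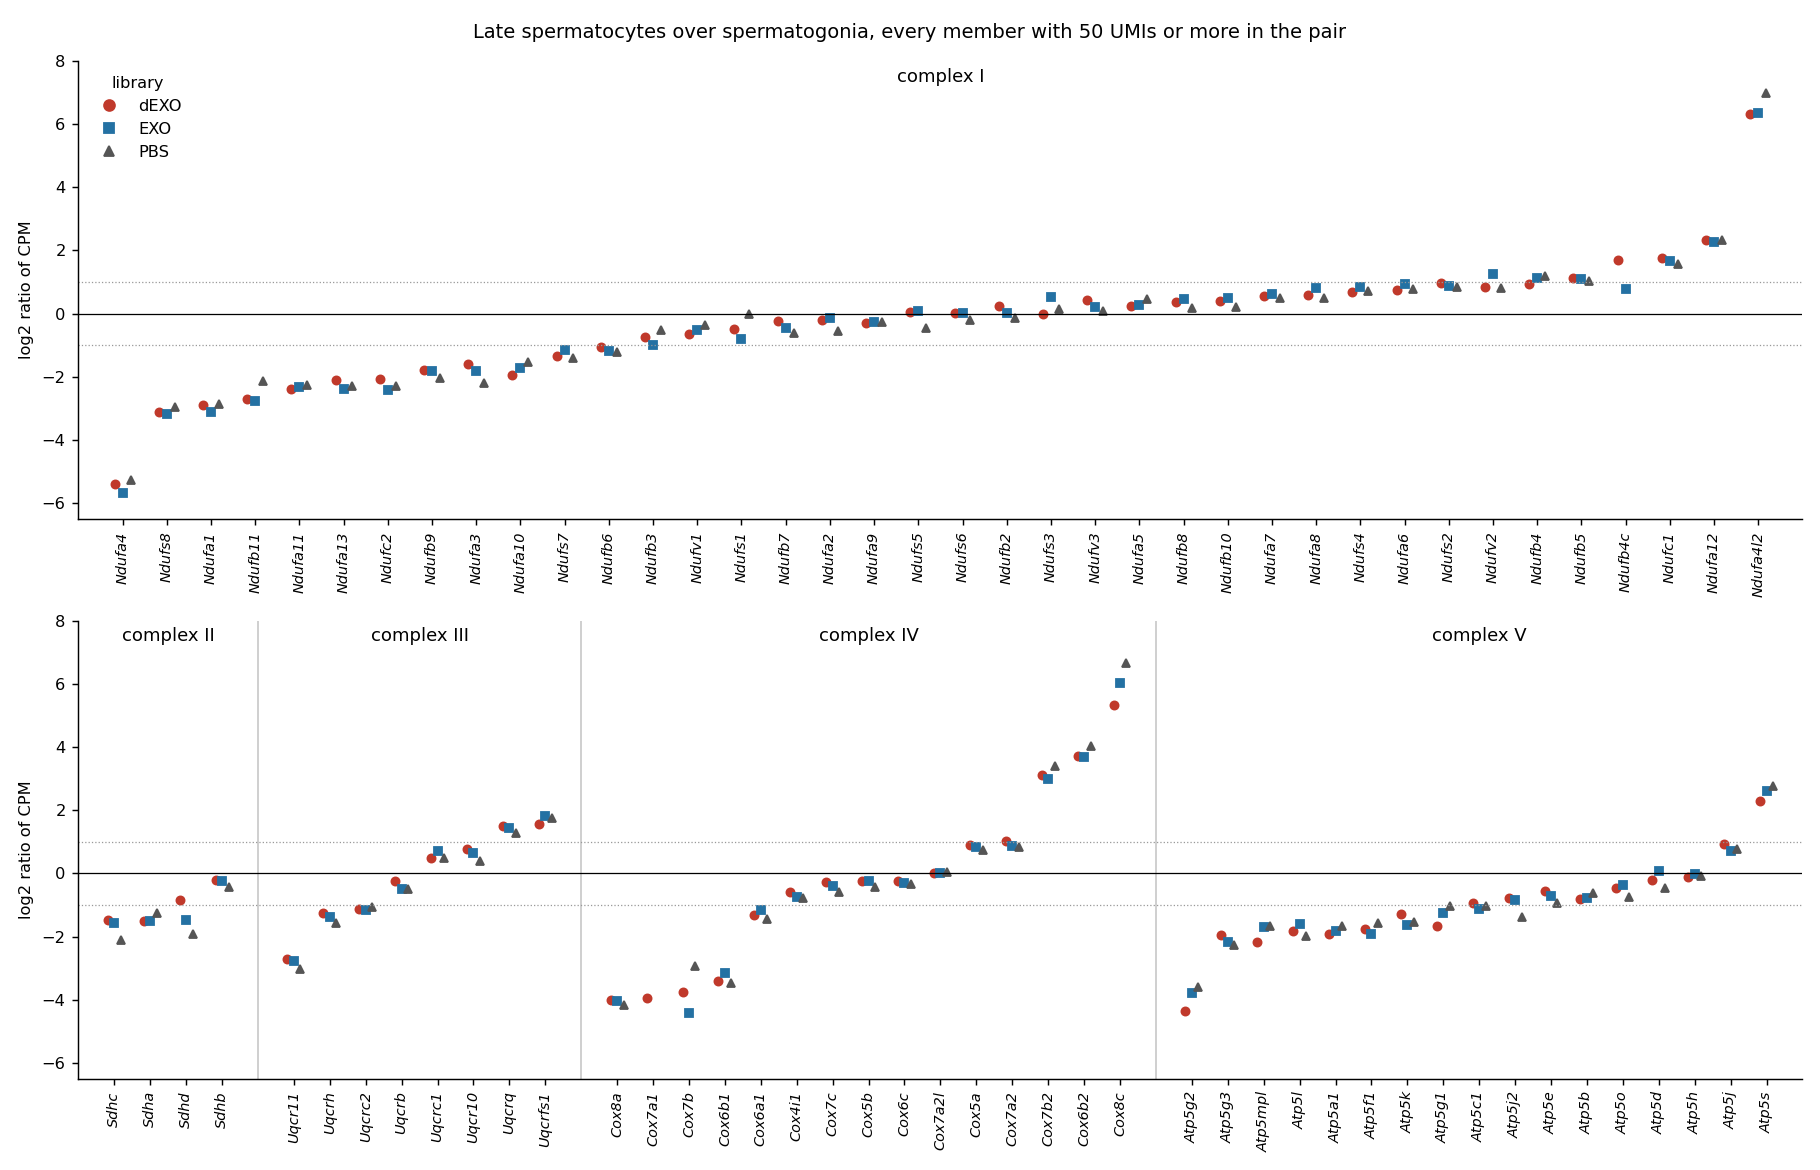
Log2 ratio of CPM, late spermatocytes over spermatogonia (y axis), for every member with at least 50 UMIs in the pair, ordered within complexes I to V, in dEXO (circles), EXO (squares) and PBS (triangles); dotted lines mark 2-fold. The 3 libraries give close values for most members, with Ndufa4l2 and Cox8c highest and Ndufa4 lowest.

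Early spermatocytes over spermatogonia gave 9 of 81 members higher and 19 lower by 2-fold in dEXO (25.1% and 40.4% of all genes) and 8 of 80 higher and 22 lower in EXO (24.7% and 39.2%). Spermatids over late spermatocytes gave 2 of 81, 1 of 80 and 1 of 77 higher (23.4%, 20.9% and 18.6%) and 6, 5 and 5 lower (16.0%, 13.2% and 11.9%) in dEXO, EXO and PBS. Most members thus passed the fold in neither direction between these stages. Still, 69, 70 and 62 members lay below 0, and 67, 65 and 42 had the whole counting interval below it. Of all genes 43.4%, 42.4% and 44.2% lay above 0. Those with the whole interval below 0 were 6235 of 13857, 5081 of 11714 and 2762 of 8009. Medians were -0.38, -0.31 and -0.20 over members and -0.20, -0.19 and -0.13 over all genes in dEXO, EXO and PBS.

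By complex, the dEXO medians were -0.00 for complex I, -1.16 for II, 0.13 for III, -0.25 for IV and -0.95 for V. Complex II lay low in each library, with medians of -1.16, -1.49 and -1.59 in dEXO, EXO and PBS over its 4 genes. Sdhb, the iron-sulfur subunit, differed least, and Sdhd, a membrane anchor, continued downward into spermatids. Sdhd had 36.8, 29.3 and 19.5 CPM in late spermatocytes of dEXO, EXO and PBS and 4.32, 1.66 and 2.09 CPM in spermatids, the last on 60, 16 and 10 UMIs. Spermatids over spermatogonia gave -3.95, -5.60 and -5.14 for Sdhd, -3.81, -4.21 and -3.64 for Ndufc2 (an accessory subunit of complex I) and -3.84, -3.64 and -3.45 for Ndufs8 in dEXO, EXO and PBS. Between spermatids and spermatogonia 9 of 81, 9 of 81 and 9 of 80 members were higher by 2-fold (36.9%, 39.6% and 35.8% of all genes) and 35, 33 and 33 were lower (45.1%, 43.0% and 46.4%) in dEXO, EXO and PBS. The classes differed in depth: PBS late spermatocytes had a median of 754.5 UMIs, and cluster g3 gave 85.9% of these cells, against 34.4% in dEXO and 49.4% in EXO. In PBS the 67 cells of g3 had a median of 733 UMIs and the 10 cells of g7 one of 30095. Levels sum UMIs, so the PBS late spermatocyte values lean on few deep cells. The part of each cluster in those sums is not given.

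Genes around the complexes were counted from lists of known factors, where 44.5%, 43.8% and 51.7% of all genes were lower and 34.7%, 36.6% and 26.1% higher in dEXO, EXO and PBS. All 12 mitochondrially encoded subunits with enough UMIs were lower in late spermatocytes than in spermatogonia of dEXO, with a median of -3.90, and 10 of 10 were lower in EXO and in PBS, with medians of -4.37 and -4.33. Mt-Cytb, the complex III subunit cytochrome b, had 377, 237 and 312 CPM in late spermatocytes and 6344, 5481 and 6347 CPM in spermatogonia of dEXO, EXO and PBS. Biogenesis regulators had 8 of 12 lower and 1 higher in dEXO, 9 of 11 lower and 0 higher in EXO, and 9 of 10 lower and 1 higher in PBS; among them Tfam, which packages and transcribes mitochondrial DNA, differed by -4.67, -4.43 and -3.48. Complex I assembly factors had 8 of 15 lower and 1 higher in dEXO, and that gene, Ndufaf3, had 562, 520 and 494 CPM in late spermatocytes against 31.4, 28.7 and 16 CPM in spermatogonia of dEXO, EXO and PBS. Complex IV assembly factors had 9 of 20 lower and 3 higher in dEXO, a share of lower genes near that of all genes. The assembly lists of complexes II, III and V, with 4, 6 and 4 genes, had 2, 2 and 2 lower and 1, 1 and 1 higher in dEXO. Of 10 cytochrome c, carrier and channel genes 7 were lower and 3 higher in dEXO. Vdac2, a channel of the outer membrane, differed by 2.97, 3.10 and 3.20, and Slc25a3, the phosphate carrier, by -1.79, -1.42 and -1.31 in dEXO, EXO and PBS. Chosen after their values were seen, Cyct, the testis form of cytochrome c, differed by 1.86, 1.51 and 1.91, and its widely expressed partner Cycs by -4.21, -4.01 and -4.11.

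Among somatic classes Leydig cells, which make testosterone by a pathway that begins in mitochondria, had the highest share of UMIs on the members. The share was 4.36%, 4.78% and 4.53% in dEXO, EXO and PBS Leydig cells and 1.56%, 1.63% and 1.72% in stromal cells. Spermatogonia were at 3.11%, 3.39% and 3.14%, spermatids at 2.26%, 2.58% and 2.32%, Sertoli cells at 2.64%, 2.68% and 2.66% and macrophages at 2.06%, 2.0% and 2.10%. Leydig and stromal ranges did not overlap. Leydig over stromal, 63 of 83, 66 of 84 and 59 of 84 members were higher by 2-fold in dEXO, EXO and PBS, where 10.9%, 10.9% and 13.3% of all genes were. The members lower by 2-fold numbered 4, 4 and 3, where 44.1%, 45.4% and 34.2% of all genes were. Member medians were 1.32, 1.36 and 1.21, and all-gene medians -0.82, -0.86 and -0.52. The direction held for each complex, whose PBS medians ran from 0.93 for complex II to 1.43 for IV.

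The member with most UMIs in each complex showed the same order. Ndufb9 (complex I accessory subunit), Sdhb, Uqcrq, Cox4i1 (the large regulatory subunit of cytochrome c oxidase, at chr8:120668222-120674207 in GRCm38) and Atp5h (a stalk subunit of ATP synthase) led their complexes with 248800, 78978, 289283, 375885 and 270493 UMIs over the 3 libraries. Cox4i1 had 1712, 1574 and 1640 CPM in Leydig cells and 657, 585 and 676 CPM in stromal cells of dEXO, EXO and PBS. Uqcrq had 1057, 1241 and 1177 CPM in Leydig cells and 262, 247 and 208 CPM in stromal cells. Ndufa4l2 went the other way, with 3.05, 1.58 and 0.78 CPM in Leydig cells and 33.9, 26.0 and 27.1 CPM in stromal cells.

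**Figure D4:**
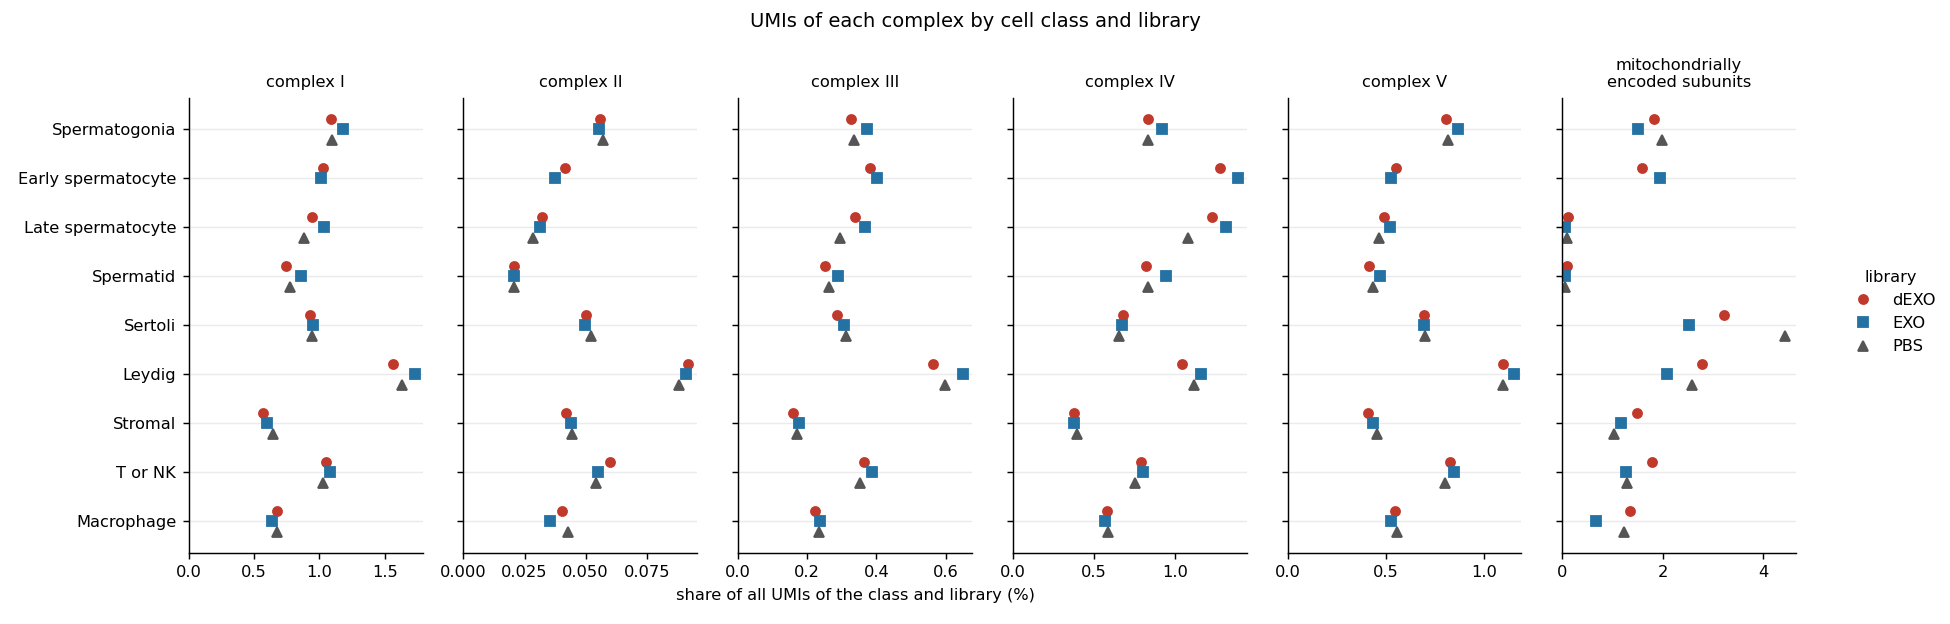
Share of all UMIs of a class and library (x axes, percent, each from 0) taken by the members of complexes I to V and by the mitochondrially encoded subunits, by cell class (y axis), for dEXO, EXO and PBS. Leydig cells are highest for complexes I, II, III and V in each library, early and late spermatocytes lie above Leydig cells for complex IV in dEXO and EXO, and late spermatocytes and spermatids are lowest for the mitochondrially encoded subunits.

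The stromal Ndufa4l2 level was set beside transcripts of germ cells that stromal cells should lack. In dEXO, EXO and PBS it was 17.6%, 13.6% and 15.4% of the spermatid level. The 6 germ-cell genes Ldhc, Pgk2, Prm1, Prm2, Smcp and Tnp1 ranged from 3.74 to 9.91% in dEXO, from 2.09 to 6.67% in EXO and from 0.72 to 5.39% in PBS, with Prm1 highest in EXO and PBS. Ndufa4l2 lay above each of the 6 in every library. It was highest in stromal cluster c8, with 68.5, 52.1 and 51.7 CPM. Cox6b2 in PBS Leydig cells was at 2.58% of its spermatid level, Cox7b2 at 0.24% and Cox8c at 0.30%, where the 6 germ-cell genes ranged from 0.20 to 1.10%. In dEXO Leydig cells the values were 3.80% for Cox6b2, 1.85% for Cox7b2 and 2.69% for Cox8c, where the 6 genes ranged from 1.00 to 2.23%. The 6 genes can spread widely, from 2.31 to 76.7% in EXO Sertoli cells. The part of free germ-cell RNA in these stromal and Leydig levels was not tested.

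Between libraries, the members that differed most in somatic cells were the germ-cell isoforms. The size counted here was a log2 ratio of 0.5 either way, or 1.41-fold, and the 2 comparisons with PBS share that library. In Leydig cells 4 of 84 members were higher and 1 lower in dEXO than in PBS (20% and 6.96% of all genes), 3 were higher and 0 lower in EXO than in PBS (14.1% and 6.17%), and 3 were higher and 1 lower in dEXO than in EXO (14.7% and 3.83%). Cox8c had 44.6 CPM in dEXO, 19.0 in EXO and 5.11 in PBS Leydig cells, log2 ratios of 3.12 and 1.89 over PBS. Cox7b2 had 13.3, 5.43 and 1.79 CPM, and Ndufa4l2 3.05, 1.58 and 0.78 CPM. Each was highest in dEXO and lowest in PBS.

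Germ-cell transcripts with no role in the complexes also differed between libraries. The 6 genes Ldhc, Pgk2, Prm1, Prm2, Smcp and Tnp1 were all higher in dEXO than in PBS Leydig cells by that size, with a median log2 ratio of 1.95, and 4 of 6 were higher in EXO than in PBS, with a median of 1.04. Their summed level was 235, 86.1 and 41.9 CPM in Leydig cells of dEXO, EXO and PBS, Ldhc alone having 175, 58.3 and 22.2 CPM. In stromal cells the sum was 1007, 406 and 172 CPM, in T or NK cells 622, 266 and 141 CPM, in macrophages 1043, 450 and 248 CPM and in Sertoli cells 1379, 1142 and 137 CPM. Their part in the isoform differences was not tested.

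Apart from the isoforms, the remaining member past the fold in Leydig cells was Cox7a1. It had 72.9, 105 and 123 CPM in Leydig cells of dEXO, EXO and PBS, log2 ratios of -0.75 (-0.82 to -0.68) for dEXO over PBS, -0.23 for EXO over PBS and -0.52 for dEXO over EXO. In Sertoli cells it had 100.3, 113 and 169 CPM, log2 ratios of -0.75 and -0.58 over PBS. PBS was the highest in both classes. Different clusters made up the Leydig cells, c2 giving 65.2% in dEXO and 35.7% in EXO and c5 giving 53.8% in PBS. Within clusters c2, c4, c5 and c17, Cox7a1 for dEXO over PBS was -0.39, -0.62, -0.42 and -0.27, so it passed the fold in c4 alone.

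In stromal cells 4 of 81 members were higher and 6 lower in dEXO than in PBS (25.6% and 2.64% of all genes), 3 of 82 were higher and 2 lower in EXO than in PBS (25.2% and 1.97%), and 3 of 81 were higher and 0 lower in dEXO than in EXO (14.4% and 2.83%). Cox7b2 had 79.7, 33.1 and 7.76 CPM, and Cox8c 208, 81.5 and 26.4 CPM, in dEXO, EXO and PBS. The lower members were led by Cox8a, with 431, 539 and 655 CPM, and Cox6b1, with 229, 300 and 344 CPM. Different clusters made up the stromal cells, c0 giving 40.1% and c1 29.6% in dEXO, c0 35.9% and c1 23.0% in EXO, and c3 35.5% and c6 21.9% in PBS. The member medians were -0.18 for dEXO over PBS and -0.08 for EXO over PBS, where the median gene stood at 0.23 and 0.26. Within c0, c1, c3 and c6 the dEXO over PBS medians were -0.07, -0.04, -0.07 and 0.05 over members. Over all genes of these clusters they were 0.16, 0.13, 0.09 and 0.10. In c8 the median was -0.40 over members and 0.05 over all genes. Set against the median gene, 3 members were higher and 27 lower in dEXO, and 3 higher and 15 lower in EXO. The shares of all genes above do not apply on that scale, and none is given for it. Whether these counts exceed those of other genes thus cannot be read from them.

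The cluster with the most lower members was c8, a small stromal cluster led by Mustn1 and Plac9b with medians of 1023.5, 1328 and 1503 UMIs per cell in dEXO, EXO and PBS. There 23 of 77 members were lower and 2 higher in dEXO than in PBS (11.0% and 15.8% of all genes), and 24 of 78 were lower and 1 higher in EXO than in PBS (9.29% and 22.7%). Ndufc1 had 340, 310 and 573 CPM, Atp5o, a stalk subunit of ATP synthase, 228, 209 and 350 CPM, and Cox6b1 493 CPM in dEXO and 900 CPM in PBS. In clusters c0, c1, c3 and c6, 2 of 80, 2 of 80, 2 of 81 and 1 of 77 members were lower in dEXO than in PBS. Of all genes there, 3.79%, 4.08%, 5.39% and 7.44% were lower. Without c8, 4 members were higher and 5 lower for dEXO over PBS in the stromal class, and 3 higher and 2 lower for EXO over PBS. No share of all genes is given for the counts without c8. Cells of c8 had fewer UMIs in dEXO than in PBS, and the part of that in the difference was not tested.

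In T or NK cells 4 of 80 members were higher and 0 lower in dEXO than in PBS (14.8% and 7.88% of all genes), 3 were higher and 0 lower in EXO than in PBS (9.67% and 5.46%), and 3 were higher and 1 lower in dEXO than in EXO (11.0% and 6.40%). Cox8c, Cox7b2 and Cox6b2 led each comparison, at 2.76, 2.91 and 1.48 for dEXO over PBS. In cluster c7 alone, which leaves out the Leydig-rich cluster c18, they were at 2.76, 3.21 and 2.77. For dEXO over EXO, c7 gave 1.49, 1.21 and 1.07. Macrophages gave 4 of 76 higher and 2 lower for dEXO over PBS (14.8% and 16.5% of all genes) and 2 of 75 higher and 4 lower for EXO over PBS (6.33% and 20.5%), and 7 of 76 higher and 0 lower for dEXO over EXO (21.1% and 6.56%).

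**Figure D5:**
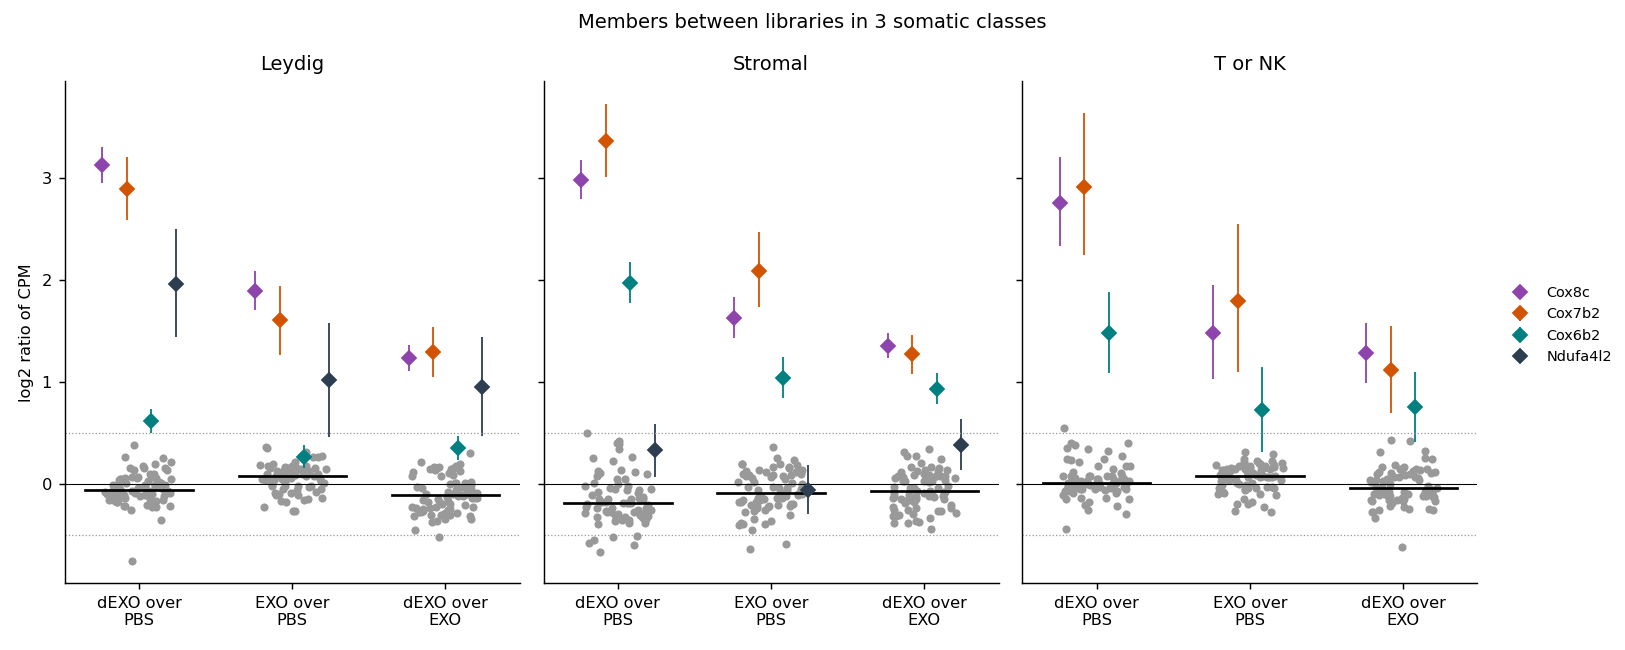
Log2 ratio of CPM between libraries (y axis) for every member with at least 50 UMIs, in Leydig, stromal and T or NK cells; coloured diamonds with 95% counting intervals are Cox8c, Cox7b2, Cox6b2 and Ndufa4l2, grey points the other members, black bars the median over members and dotted lines a log2 ratio of 0.5 either way. Most grey points lie between the dotted lines, and Cox8c and Cox7b2 lie above 1 in all 9 comparisons.

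Within germ cells few members passed the 1.41-fold size between the exosome libraries, but more members lay below 0 than above it for dEXO over EXO. Early spermatocytes were nearly even, with 37 above and 40 below, and 50.9% of all genes there lay above 0. The tilt was not limited to germ cells. In Leydig cells 58 of 84 members also lay below 0, 52 with the whole counting interval, and the median was -0.10. Of all genes there, 63.3% lay above 0 and 2097 of 14422 had the whole interval below it. Stromal, T or NK and Sertoli cells had 46 of 81, 43 of 80 and 43 of 82 below 0. Of all genes in these classes, 50.4%, 54.4% and 49.4% lay above 0, so the Sertoli count was near that of all genes. Macrophages had 44 of 76 above 0, near the 59.4% of all genes there. For dEXO over EXO, 1 of 80 members was higher and 2 lower in spermatogonia (9.13% and 4.17% of all genes), 2 of 77 higher and 1 lower in early spermatocytes (7.30% and 8.34%), 0 of 80 higher and 1 lower in late spermatocytes (17.0% and 7.62%) and 3 of 81 higher and 2 lower in spermatids (11.5% and 3.42%). In spermatids 63 of 81 members lay below 0, 54 of them with the whole counting interval. Of all genes there, 60.7% lay above 0 and 1630 of 12664 had the whole interval below it. The median was -0.18 over members and 0.08 over all genes. In late spermatocytes 56 of 80 members lay below 0, 47 with the whole interval, with a median of -0.10 and 0.08 over all genes. Of all genes there, 58.5% lay above 0 and 2262 of 12460 had the whole interval below it. The early spermatocyte count depended on the processing. It was 13 at a higher minimum of UMIs per cell, 19 at a coarser clustering and 17 with each cell weighted equally. No share of all genes is given for these 3 counts, so they do not set the members apart from other genes. Cluster g2 alone had 5 higher and 8 lower of 51, where 11.2% of all genes were higher and 10.9% lower. Ndufa1, an X-linked accessory subunit of complex I, had 176 and 286 CPM in spermatogonia of dEXO and EXO, a log2 ratio of -0.69, and PBS had 191 CPM. EXO stood apart from the other 2 libraries there. Atp5mpl, a small membrane subunit of ATP synthase, was at -0.69 in late spermatocytes. In spermatids Sdhd had 4.32 and 1.66 CPM in dEXO and EXO, a log2 ratio of 1.38 on 60 and 16 UMIs, and Ndufb4c, an uncertain pseudogene count, was at -0.67. There Ndufs1, the largest core subunit of complex I, was at 0.53, Sdhc, a membrane anchor of complex II, at 0.56, and Ndufa3, an accessory subunit of complex I, at -0.60. In Sertoli cells 3 of 82 were higher and 0 lower (13.0% and 5.02%), all germ isoforms. Over PBS, 5 of 82 were higher and 1 lower in dEXO Sertoli cells (21.1% and 6.13%) and 4 of 80 higher and 1 lower in EXO (13.7% and 5.72%), with Cox6b2 at 135, 71.3 and 14.2 CPM in dEXO, EXO and PBS.

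Against PBS, spermatogonia had 1 of 80 members higher and 0 lower in dEXO (8.28% and 3.55% of all genes), which was Cox8c at 1.56, and 4 of 80 higher and 0 lower in EXO (5.33% and 6.25%), which were Cox8c at 0.98, Cox6b2 at 0.63, Cox7b2 at 0.62 and Ndufa1 at 0.58. Late spermatocytes had 4 of 80 higher and 3 lower in dEXO (17.9% and 17.2%) and 5 of 79 higher and 2 lower in EXO (10.4% and 20%), and spermatids 2 of 81 higher and 0 lower in dEXO (12.0% and 3.05%) and 2 of 79 higher and 1 lower in EXO (7.02% and 5.77%). The isoform shares of late spermatocytes and spermatids differed between libraries by less than 4 percentage points.

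Some members could not be followed. Cox4i2 and Cox8b had under 50 UMIs in every comparison, and Ndufa11b and Ndufs6b in 46 of 48. Ndufa11b, Ndufb4c, Ndufs6b and Cox6c2 are annotated as processed pseudogenes, with 116, 1551, 181 and 277 UMIs over the 3 libraries. Their sequences resemble their parent genes, so their counts are uncertain.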

How the data were processed

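Raw UMI counts per gene and cell were deposited by the authors as 1 matrix per library. They were made with Cell Ranger 5.0.1 per the file headers; Cell Ranger, Seurat and GRCm38 are named per the submitters' processing notes. Barcodes under 500 UMIs, under 300 genes or over 20% mitochondrial UMIs were dropped, that is 641 barcodes in dEXO, 366 in EXO and 243 in PBS. Scrublet in scanpy 1.11.5 called 172, 2 and 4 doublets in dEXO, EXO and PBS, which were removed; the caller did not work in EXO and PBS. Cells were clustered with leidenalg 0.10.2, leaving the members out of the variable genes. A cluster was named where at least 3 markers and 33.3% of a class's markers were raised, a rule revised after the clusters were seen. UMIs were summed per class and library, and ratios of CPM were given exact conditional binomial 95% intervals (scipy 1.17.1), tested on simulated data. These cover counting error only. A gene needed 50 UMIs in a pair, and a class 50 cells in a library. Named genes were the tissue isoforms with their partners, the highest and lowest of each comparison by the interval bound nearest 0, the member with most UMIs in each complex and the leading genes of each list; other genes in the text were added after their values were seen. The members and lists were chosen with earlier results of these data known.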

Additional observations from a re-analysis of the deposited data

Results flagged for a closer look

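Sdhd, a membrane anchor of complex II, moved in opposite directions between dEXO and PBS in different classes. In macrophages it had 69.6 CPM in dEXO and 107 CPM in PBS (35 and 96 UMIs), a log2 ratio of -0.61 with an interval of -1.22 to -0.04. In late spermatocytes it had 36.8 CPM in dEXO and 19.5 CPM in PBS (685 and 21 UMIs), a log2 ratio of 0.92 with an interval of 0.29 to 1.62. In spermatids it had 4.32 CPM in dEXO and 2.09 CPM in PBS (60 and 10 UMIs), a log2 ratio of 1.05 with an interval of 0.07 to 2.18. With 1 library per group the difference between classes was not tested.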

How the results depend on the processing

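Of 122 values of named members, 115 kept their sign under every alternative run. Counts of members past the fold are given as dEXO over EXO unless another pair is named. In the comparisons with changes below the counts reported were 3 for early spermatocytes, 1 for late spermatocytes, 5 for spermatids, 3 for Sertoli cells, 3 for spermatogonia, 3 for stromal and 4 for T or NK cells, and over PBS 10 (dEXO, stromal), 5 (EXO, stromal), 3 (EXO, Leydig), 3 (EXO, T or NK) and 4 (dEXO, T or NK). With members kept among the variable genes, early spermatocytes had 5 and late spermatocytes 3. With the highest doublet scores removed, spermatids had 1 and T or NK cells 7 for dEXO over PBS. With the higher minimum of UMIs per cell, early spermatocytes had 13, late spermatocytes 4, and early spermatocyte Ndufv1 stood at -0.013. At no more than 10% mitochondrial UMIs, spermatogonia had 5, early spermatocytes 6, late spermatocytes 0, spermatids 3 and Sertoli cells 0, and Sertoli Cox7b2 stood at -0.11. At a Leiden resolution of 0.5, early spermatocytes had 19 and late spermatocytes 3. Relative to the median gene, which moved ratios by up to 0.55, stromal cells had 30 for dEXO over PBS and 18 for EXO over PBS, late spermatocytes 3 and spermatids 3. With each cell weighted equally, stromal cells had 8 for EXO over PBS, T or NK cells 9, early spermatocytes 17, late spermatocytes 7 and Sertoli cells 7; spermatogonia Cox8c stood at -0.12 and early spermatocyte Ndufa10 at -0.59. With no filter on low counts, EXO over PBS gave 7 in Leydig, 8 in stromal and 5 in T or NK cells, and dEXO over EXO gave 7 in stromal cells, 6 in spermatogonia and 2 in late spermatocytes. Without germ clusters under a median of 2500 UMIs, late spermatocytes had 5. That alternative, and those without stromal cluster c8 or T or NK cluster c18, were chosen after seeing the data. The other 187 counts of members past the fold stayed within the range taken as unchanged. No share of all genes is given for the counts under the alternatives. Named ratios, member medians and isoform shares were followed apart from these counts. Of their alternative values, 2054 were unchanged and 430 moved out of the counting range of the reported value. Another 4 reversed, that is, the reported ratio was past the fold and the alternative had the opposite sign. The causes were not tested. No paired analysis was possible because the groups share only 1 replicate number. With 1 library per group, differences between animals cannot be told apart from the treatments, and PBS germ cells were few.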
